A study of Homo sapiens with 6 samples.

Results

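RAB7A encodes the small GTPase of late endosomes and lysosomes, and it was examined in HCT116 cells together with the genes of its exchange factor, its GTPase activators and its effectors. The members were taken from the gene table by name: RAB7A, RAB7B, MON1A, MON1B, CCZ1, RILP, PLEKHM1, FYCO1, TBC1D5 and TBC1D15, 10 of the 58735 genes listed. RAB7A was chosen by its fall between the groups compared here, so its levels are given as a description with no test. The other 9 genes were chosen by what their products do with RAB7A, at a time when their fold changes were already known, and their calls are likewise read only beside the share of all genes that was called.

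HCT116 is an established line of human colorectal carcinoma cells. RNA-seq was performed on 3 libraries of control-transfected cells (CTR, labelled as genotype WT) and 3 libraries of cells transfected with miR-8485 mimics (miR-8485). The general transfection method of the study used 50 nM of mimics and a collection after 48 h unless another time was named. The labels describe the replicates of each group as independent biological replicates. For the control transfection, sequence and dose are not given in the sources used here, and the cells all came from a single line. Levels are in FPKM, fragments per kilobase of gene scaled to the fragment total of the library, which allows genes to be compared within a library but does not show a change in total RNA per cell. As in any bulk measurement, fewer cells of a type and less RNA per cell cannot be told apart.

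RAB GTPases switch between a GDP-bound form in the cytosol and a GTP-bound form on membranes. The MON1-CCZ1 complex is the exchange factor that loads RAB7A with GTP as early endosomes mature into late endosomes, while TBC domain proteins such as TBC1D5 and TBC1D15 stimulate GTP hydrolysis and switch it off. In its active form RAB7A recruits effectors that move late endosomes and autophagosomes along microtubules and prepare them for fusion with lysosomes. A mimic carries the mature strand of a microRNA into cells from outside, and that strand binds mRNAs mainly through its seed, bases 2 to 8.

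The sequences below are those against which the 3′ untranslated regions (3′ UTRs) of the members were read. The mimic, as given in the methods of the study for its sense strand only, has 17 bases, and capitals mark its seed. The other lines are stretches of 3′ UTRs of the canonical GENCODE release 44 transcripts on GRCh38, the build also named hg38 that the submitters used. Capitals mark the longest stretch that pairs base by base with the mimic in CCZ1 (chr7:5926337-5926363, plus strand), MON1B (chr16:77199177-77199202, plus strand) and TBC1D5 (chr3:17158140-17158163, minus strand). The stretch in TBC1D5 pairs with bases of the mimic after the seed and is not a match to the seed. In RAB7A (chr3:128813582-128813611, plus strand), capitals mark the longest stretch that has the same letters as the mimic, with T for U.
miR-8485 mimic: cACACACAcacacguau
CCZ1: cctaagccTGTGTGTGTGTcctcgtgt
MON1B: tagggtttTGTGTGTGTGcacactac
TBC1D5: ttgtacatTACGTGTGagagttac
RAB7A: ctctcacaCACACACACACACGcacacaca

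RAB7A occupies chromosome 3 from 128726122 to 128814796 (hg38, plus strand). It measured 107, 116 and 119 FPKM in the CTR libraries and 8.26, 7.63 and 9.84 FPKM in the miR-8485 libraries. Every miR-8485 library thus lay far below every CTR library, with 375 to 509 fragments against 5251 to 5857. The mean went from 114 ± 6.14 in CTR to 8.57 ± 1.14 FPKM in miR-8485 (SD, n = 3 each), a 13.3-fold difference that left 7.52% of the CTR level. On the log2(FPKM + 0.1) scale the difference was -3.72. Among the 10721 tested protein-coding genes, this was rank 1 by size of the fall, and among all 12349 tested genes it was rank 3. By level, RAB7A ranked 301 of the 12349 tested genes in CTR and 4770 in miR-8485.

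**Figure D1:**
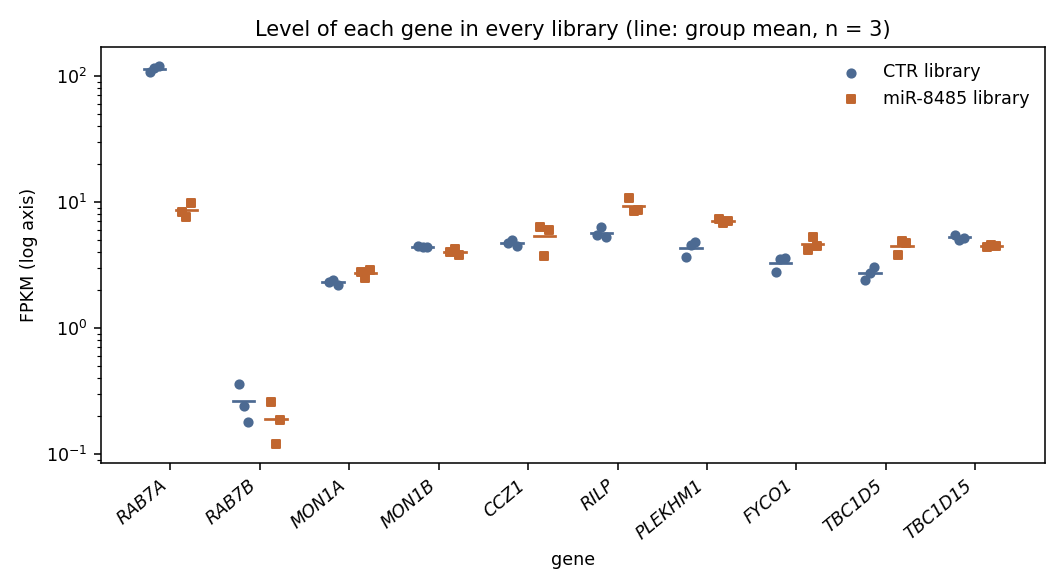
FPKM on a log axis for each of the 10 genes, with a point for each of the 3 CTR and 3 miR-8485 libraries and a line at each group mean. RAB7A drops from above 100 FPKM into the range of the other members, which move little on this scale.

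In CTR, RAB7A was the highest of the members, 20.1 times the level of RILP, the next one, and made up 77.6% of the FPKM summed over the 10 genes. In miR-8485 it made up 17% of that sum. The order below RAB7A in CTR was RILP, TBC1D15, CCZ1, MON1B, PLEKHM1, FYCO1, TBC1D5 and MON1A, between 5.68 and 2.3 FPKM, followed by RAB7B at 0.26 FPKM. Within this order the libraries of neighbouring genes overlapped, except between TBC1D15 and CCZ1, between PLEKHM1 and FYCO1, and between MON1A and RAB7B. In miR-8485 the order began with RILP at 9.27 FPKM and RAB7A at 8.57 FPKM, whose libraries overlapped, and PLEKHM1 at 7.02 FPKM came below both. 

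A comparison with the other RAB GTPase genes showed how far RAB7A stood from its family. Of 44 tested genes named as RAB GTPases, RAB7A had the highest mean in CTR and was at rank 25 in miR-8485. The log2 fold changes of the other 43 genes lay between -1.81 for RAB3B and 1.0 for RAB37, with a median of -0.09, against a median of -0.0041 over all tested genes. RAB7A therefore lay outside the range of its family, as a description of values that had chosen it.

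**Figure D2:**
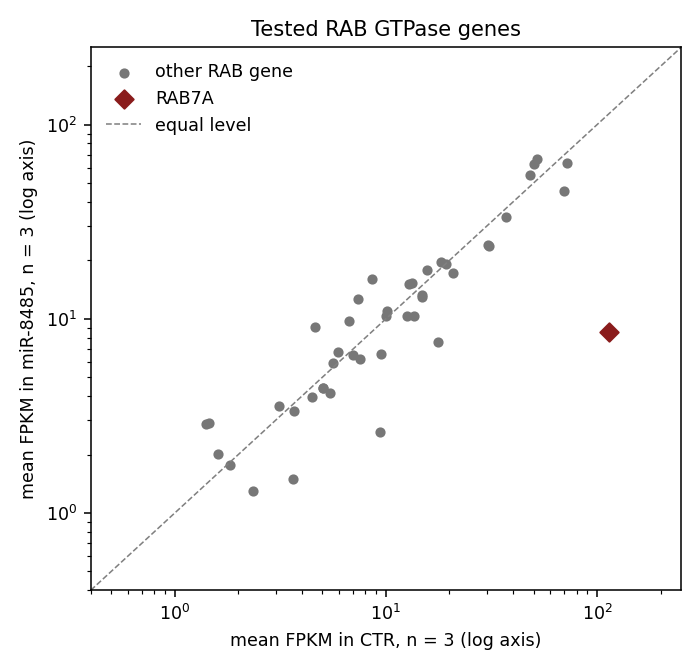
Mean FPKM in CTR (horizontal) and in miR-8485 (vertical), both on log axes, for the 44 tested RAB GTPase genes, with a dashed line at equal levels. RAB7A, at 114 and 8.57 FPKM, lies further below this line than any other of these genes, with RAB3B next at 9.4 and 2.61 FPKM. The other genes lie on both sides of the line.

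RAB7B, at 205976740 to 206003461 of chromosome 1 (minus strand), encodes a related GTPase linked to transport from endosomes to the Golgi. It was close to the limit of detection, with 24, 16 and 12 fragments in CTR replicates 1 to 3 and 17, 8 and 13 in those of miR-8485. These correspond to 0.361, 0.24 and 0.18 FPKM in CTR and 0.257, 0.12 and 0.185 FPKM in miR-8485, and the groups overlapped. With a mean under 1 FPKM it was the only member below the filter, and it was fitted with all 31768 genes above 0, of which 22.1% were called in either direction. Its log2 difference was -0.32 with a 95% interval from -1.20 to 0.56 (adjusted p = 0.585, limma with Benjamini-Hochberg adjustment), so a change in either direction was not detectable at this depth. The sum of RAB7A and RAB7B was 8.76 ± 1.16 FPKM in miR-8485 against 114 ± 6.05 in CTR (SD, n = 3 each).

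The 8 members other than RAB7A with a mean of at least 1 FPKM were tested with all 12349 genes above that level in limma, with p-values adjusted by the Benjamini-Hochberg method. RILP, PLEKHM1, FYCO1 and TBC1D5, 4 of the 8, were called higher in miR-8485 at an adjusted p under 0.05, where 29.1% of all tested genes were called higher. TBC1D15 was lower, 1 of the 8 members tested beside RAB7A, where 30.5% of all tested genes were. MON1A, MON1B and CCZ1 were not called. The libraries of the 2 groups did not overlap for 7 of the 8 genes, CCZ1 being the exception, beside 66.5% of all tested genes. The median log2 fold change of these 8 members was 0.35.

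**Figure D3:**
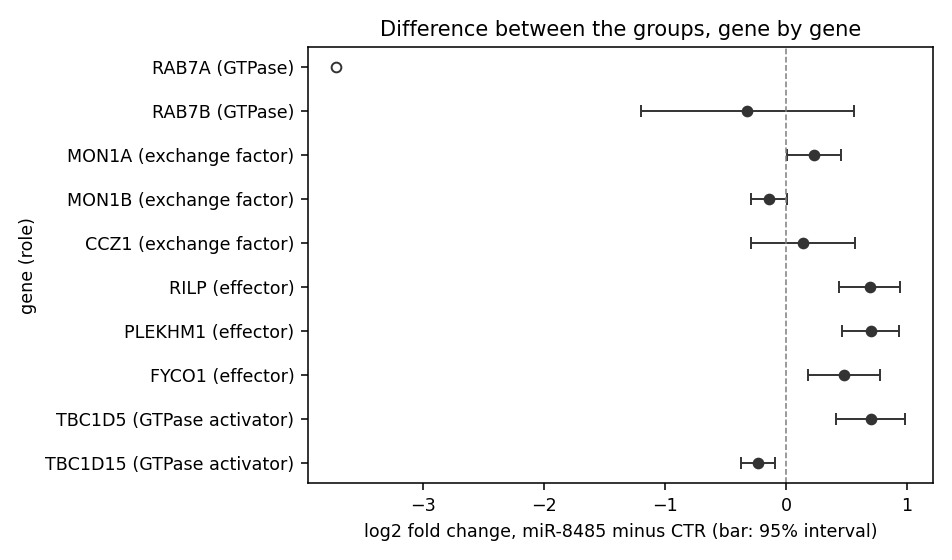
Log2 fold change, miR-8485 minus CTR, on log2(FPKM + 0.1) with n = 3 libraries per group, of each gene; bars are 95% intervals from limma, and RAB7A, chosen by its fall, is an open point without one. RAB7A lies at -3.72, while the other 9 genes lie between -0.32 and 0.70.

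The exchange factor consists of a MON1 subunit, MON1A or MON1B, and CCZ1. MON1A (chromosome 3, minus strand, 49907160 to 49930173) measured 2.31, 2.4 and 2.19 FPKM in CTR and 2.78, 2.47 and 2.89 FPKM in miR-8485. All 3 miR-8485 libraries were above all CTR libraries, but the log2 difference of 0.23 (standard error 0.09) did not pass the threshold (adjusted p = 0.0696 in limma, 95% interval 0.01 to 0.45). It did pass without miR-8485 replicate 2, with a log2 difference of 0.29 (adjusted p = 0.0453 in limma).
MON1B (chromosome 16, plus strand, 77190835 to 77202405) measured 4.46, 4.35 and 4.36 FPKM in CTR and 3.98, 4.19 and 3.75 FPKM in miR-8485. Here the miR-8485 libraries were all lower, with a log2 difference of -0.14 (standard error 0.07) that did not pass either (adjusted p = 0.0963 in limma, 95% interval -0.29 to 0.01). Summed, the MON1 genes stood at 6.69 ± 0.124 in CTR and 6.69 ± 0.063 FPKM in miR-8485 (SD, n = 3 each).

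CCZ1 (chromosome 7, plus strand, 5898725 to 5926550) measured 4.75, 4.93 and 4.44 FPKM in CTR and 6.35, 3.74 and 5.94 FPKM in miR-8485. Replicate 2 of miR-8485 lay below every CTR library and the other 2 lay above them, so the groups overlapped. The log2 difference was 0.14 with a 95% interval from -0.29 to 0.57 (adjusted p = 0.526 in limma), and without miR-8485 replicate 2 it was 0.38 (adjusted p = 0.0072 in limma). CCZ1 has a near-identical copy, CCZ1B, on the same chromosome, and the counting could have split fragments between them. CCZ1B measured 3.14, 4.21 and 4.97 FPKM in CTR and 3.39, 4.13 and 3.98 FPKM in miR-8485. The sum of both copies was 8.81 ± 0.812 in CTR and 9.17 ± 1.14 FPKM in miR-8485 (SD, n = 3 each), which differ by less than the spread between replicates.

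All 3 effectors were higher in the miR-8485 libraries. RILP, which links RAB7A to the dynein motor and so to transport towards the cell centre, is at 1646145 to 1650077 of chromosome 17 (minus strand). It measured 5.46, 6.31 and 5.28 FPKM in CTR and 10.7, 8.47 and 8.66 FPKM in miR-8485, with no overlap. Its mean rose from 5.68 ± 0.549 to 9.27 ± 1.22 FPKM (SD, n = 3 each), a log2 difference of 0.69 (standard error 0.11, adjusted p = 0.001 in limma).
PLEKHM1, an adaptor that joins RAB7A to the tethering machinery for fusion with lysosomes, is at 45435900 to 45490749 of chromosome 17 (minus strand). It measured 3.66, 4.53 and 4.76 FPKM in CTR and 7.24, 6.74 and 7.09 FPKM in miR-8485, again without overlap. The log2 difference was 0.70 (standard error 0.10, adjusted p = 7.3e-04 in limma). PLEKHM1P1, a pseudogene copy whose fragments the counting may not have kept apart, moved in the same direction, from 1.76 ± 0.224 to 2.74 ± 0.134 FPKM (SD, n = 3 each), a log2 difference of 0.62 (adjusted p = 0.0027 in limma).
FYCO1, which connects RAB7A to kinesin for transport towards the cell periphery, is at 45917899 to 45995824 of chromosome 3 (minus strand). It measured 2.75, 3.5 and 3.6 FPKM in CTR and 4.15, 5.25 and 4.46 FPKM in miR-8485. Its rise was smaller than that of the other effectors, with a log2 difference of 0.48 (standard error 0.13, adjusted p = 0.0131 in limma), although this order among the effectors was not tested.

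The GTPase activators moved in opposite directions. TBC1D5, which acts on RAB7A together with retromer, is at 17157162 to 18444817 of chromosome 3 (minus strand). It measured 2.39, 2.7 and 3.03 FPKM in CTR and 3.78, 4.87 and 4.69 FPKM in miR-8485, so that every miR-8485 library was above every CTR library. The log2 difference was 0.70 (standard error 0.12, adjusted p = 0.0021 in limma).
TBC1D15, which acts on RAB7A at contacts with mitochondria, is at 71839707 to 71927248 of chromosome 12 (plus strand). It measured 5.49, 5.01 and 5.15 FPKM in CTR and 4.34, 4.53 and 4.45 FPKM in miR-8485, the opposite order without overlap. The fall was small, with a log2 difference of -0.23 (standard error 0.06, adjusted p = 0.0138 in limma) and a 95% interval from -0.37 to -0.09. The directions of the 5 called members other than RAB7A were the same in every alternative that tested them.

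The 3′ UTRs of the members were next read for matches to the mimic. TGTGTGT, the word that pairs with the seed, was counted in the longest annotated 3′ UTR of each gene, overlapping copies included. RAB7A, with a 3′ UTR of 2099 bases, held 0 copies, and neither did the whole of that transcript hold any. The longest stretch of it that pairs with the mimic was 5 bases. Of 10667 tested protein-coding genes with a 3′ UTR, 30.2% held at least 1 copy and 35.7% had a longest paired stretch of 5 bases or less. MON1B, with 6 copies in 4090 bases, and CCZ1, with 3 copies in 1981 bases, held the most among the members, and their longest paired stretches were 10 and 11 bases. Neither gene was called lower, although MON1B was lower in all 3 miR-8485 libraries. Because overlapping copies were counted, a long repeat gives several copies at a single site. In the canonical transcript of CCZ1, all 3 copies lie in the printed stretch. At least 1 copy went with a median log2 fold change of -0.15 and 44.1% of genes called lower, against -0.03 and 33.7% for all 10667 genes. At least 3 copies were found in 9.43% of the genes (median -0.27, 54% called lower) and at least 6 copies in 4.04% (median -0.37, 60.8% called lower). The median length of the 3′ UTR rose along with the copies, from 1458 bases over all 10667 genes to 2827, 3697 and 3977 bases with at least 1, 3 and 6 copies. The part of this length in the fold changes was not tested. TBC1D5, FYCO1, PLEKHM1 and TBC1D15 held 1 copy each, and RAB7B, MON1A and RILP held 0. In the canonical transcripts, with 3′ UTRs of 1958 bases in PLEKHM1 and 1109 bases in TBC1D15, these 2 genes held 0 copies as well. No copy in a member says only that these letters lie in the annotated 3′ UTR; which 3′ UTRs the cells used was not measured.

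RAB7A differed from the other members in the reverse reading. Its 3′ UTR held a stretch of 14 bases with the letters of the mimic itself, shown in capitals above, while the longest such stretch in the other members was 4 to 8 bases, in either choice of 3′ UTR. Such a stretch does not pair with the sense strand of the mimic but would pair with an RNA complementary to it. This reading was added after the values had been seen. A stretch of at least 14 bases, the length in RAB7A, was found in 48 of the 10667 genes, or 0.45%. The median log2 fold change of these 48 genes was -0.82 and 32 of them, or 66.7%, were called lower. Over all 10667 genes the median was -0.03, with 3593, or 33.7%, called lower and 3021 called higher. Of the 48 genes, 27 also held the seed match. The other 21 genes, RAB7A among them, had a median of -0.65, with 14, or 66.7%, called lower and 3 called higher.
Between these extremes the medians fell with the length of the stretch, from -0.01 for the 9251 genes with 7 bases or less to -0.13 at 8 bases, -0.32 at 10 bases, -0.44 at 12 bases and -0.76 at 13 bases. The share called lower was 31% at 7 bases or less, 68.8% at 12 bases and 70.3% at 13 bases, beside 66.7% at 14 or more. The median length of the 3′ UTR was 1285 bases for the genes with 7 bases or less and between 2819 and 3375 bases for those with 8 to 12. It was 3768 bases at 13 and 3700 bases at 14 or more. The seed match was also more common in the groups with longer stretches. It was held by 2518 of the 9251 genes with 7 bases or less and by 285 of 618 at 8 bases. At 10, 12 and 13 bases it was held by 77 of 148, 40 of 64 and 102 of 182 genes. The parts of the 3′ UTR length and of the seed match in these medians were not tested, nor was any part of the stretch in the fall of RAB7A.

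**Figure D4:**
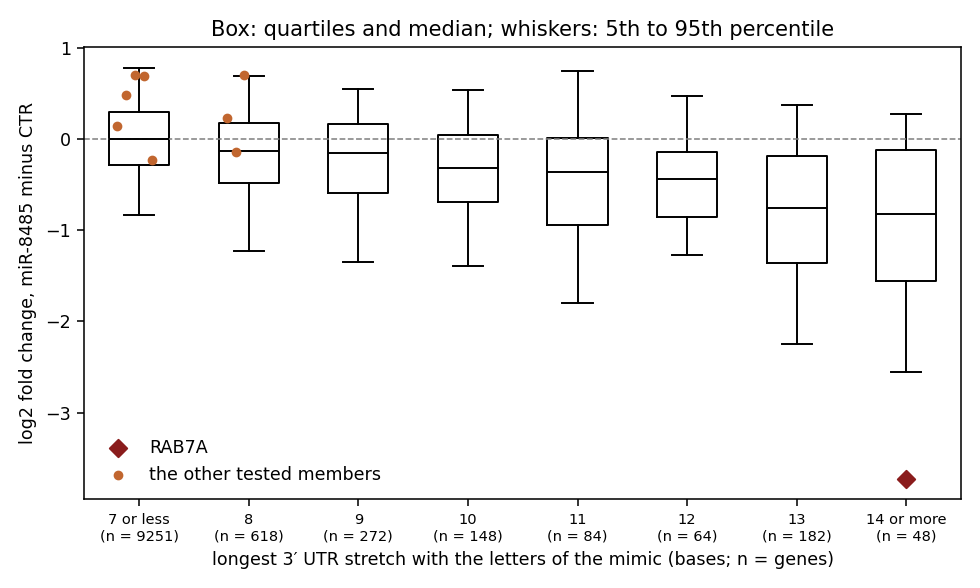
Log2 fold change, miR-8485 minus CTR, of 10667 protein-coding genes (vertical) by the length in bases of the longest 3′ UTR stretch with the letters of the mimic (horizontal); boxes give quartiles and median, whiskers the 5th to the 95th percentile, and points the tested members. The median falls from -0.01 in the group with 7 bases or less to -0.82 in the group with 14 or more, where RAB7A lies below the whisker, while the other tested members stay in the groups of 8 bases or less.

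Genes whose profiles were most like that of RAB7A were named by the root mean square difference over the 6 libraries between log2(FPKM + 0.1) profiles, each set to 0 at its own CTR mean. The 5 closest protein-coding genes were SLC25A6, a mitochondrial ADP/ATP carrier, GSN, the actin severing protein gelsolin, SPARC, a secreted matrix protein, CTSD, the lysosomal protease cathepsin D, and CCND1, cyclin D1. Their differences from the RAB7A profile were 0.22, 0.29, 0.30, 0.37 and 0.39 on the log2 scale. SLC25A6 went from 301 to 26.7 FPKM, GSN from 13 to 1.18, SPARC from 6.27 to 0.547, CTSD from 36.8 to 3.94 and CCND1 from 216 to 23.7 FPKM, as means of 3 libraries each. In the 3′ UTRs of these genes, the stretch with the letters of the mimic measured 13 bases in SLC25A6 and CCND1, 11 in SPARC, 9 in CTSD and 4 in GSN. Over the 10667 genes, 13.3% had such a stretch of 8 bases or more and 30.2% held the seed match. The 5 genes were picked by their profile, and any part of these features in it was not tested. The seed match had 7 copies in GSN, whose longest paired stretch was 13 bases, and 2 in CCND1, and 0 in SLC25A6, SPARC and CTSD.

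Other genes of the RAB7 pathway were grouped by function into 8 lists with 33 genes. RUBCNL and LRRK1 had a mean below 1 FPKM over all libraries, and the other 31 genes were tested. Of these, 3 were higher and 9 lower in miR-8485 by limma with Benjamini-Hochberg adjustment, and 19 were not called. Over all tested genes, 29.1% were higher and 30.5% lower. The lower share of the lists was thus near that of all genes, and the higher share was below it. The median log2 fold change of the 31 genes was -0.08, and no gene of these lists changed by as much as 1 on the log2 scale. The split of directions depended on scaling, with 2 higher and 15 lower after rescaling to TPM, which moved the median of all tested genes to -0.1184.

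RMC1, the third subunit of the MON1-CCZ1 exchange factor, fell from 11.9 ± 0.729 to 8.87 ± 0.386 FPKM (SD, n = 3 each), a log2 difference of -0.41 (standard error 0.06, adjusted p = 9.7e-04 in limma). Among other TBC proteins, TBC1D2B fell from 2.63 ± 0.248 to 1.46 ± 0.174 FPKM (SD, n = 3 each; log2 difference -0.81, adjusted p = 0.0012 in limma). TBC1D2, a GTPase activator of RAB7A at cell contacts, stood at 8.4 and 8.41 FPKM (log2 difference 0.01, standard error 0.08). Of the 5 tested genes for other effectors and RAB7-binding regulators, OSBPL1A, RUBCN, UVRAG, WDR91 and VPS13C, 0 were called, with log2 differences between -0.13 and 0.26.
The HOPS complex tethers late endosomes to lysosomes, and its subunits did not move together. VPS39 rose from 5.34 ± 0.17 to 7.86 ± 0.459 FPKM (SD, n = 3 each; log2 difference 0.55, adjusted p = 2.4e-04 in limma) and VPS16 from 9.68 to 12.4 FPKM (log2 difference 0.36, adjusted p = 0.0016). VPS18 fell from 12.6 to 10.2 FPKM (log2 difference -0.30, adjusted p = 0.0026) and VPS11 from 5.69 to 4.74 FPKM (log2 difference -0.26, adjusted p = 0.0183), but the call of VPS11 was lost without CTR replicate 2 (adjusted p = 0.0562) or miR-8485 replicate 2 (adjusted p = 0.0581 in limma).

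Retromer, which returns cargo from endosomes and works with TBC1D5, had 3 of 5 genes called lower and 0 higher, a small list to set beside the 30.5% and 29.1% of all tested genes. VPS29 fell from 20.5 ± 1.61 to 16.4 ± 0.56 FPKM (SD, n = 3 each; log2 difference -0.32, adjusted p = 0.0041 in limma). VPS35 and VPS26B had log2 differences of -0.19 each, and the call of VPS35 (adjusted p = 0.0286 in limma) was lost without CTR replicate 2 or 3 and without any single miR-8485 library, with adjusted p up to 0.0933. Of the 6 genes that prenylate RAB proteins or carry them to and from membranes, RABGGTB, a subunit of the geranylgeranyl transferase, fell from 19 ± 1.55 to 13.8 ± 0.552 FPKM (SD, n = 3 each; log2 difference -0.46, adjusted p = 8.2e-04 in limma), and the other 5 were not called.
TBK1 and USP32, enzymes that phosphorylate and deubiquitinate RAB7A, had log2 differences of -0.13 and -0.08 and were not called, and LRRK1, another kinase of RAB7A with 1.1 and 0.706 FPKM, had -0.57 without overlap of the groups in the fit of all genes above 0 (adjusted p = 0.104 in limma). LRRK1 was called lower after rescaling to TPM (-0.72, adjusted p = 0.0426) and in voom on recovered fragments (-0.64, adjusted p = 8.9e-05 in limma). The RAB5 genes, whose products precede RAB7A on early endosomes, went in different directions. RAB5A was higher (log2 difference 0.24, adjusted p = 0.0153 in limma), a call that was lost after rescaling to TPM (0.13, adjusted p = 0.156) and without miR-8485 replicate 3 (0.20, adjusted p = 0.0564). RAB5B was lower (log2 difference -0.38, adjusted p = 0.0015 in limma), and RAB5C was not called (log2 difference 0.11).

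**Figure D5:**
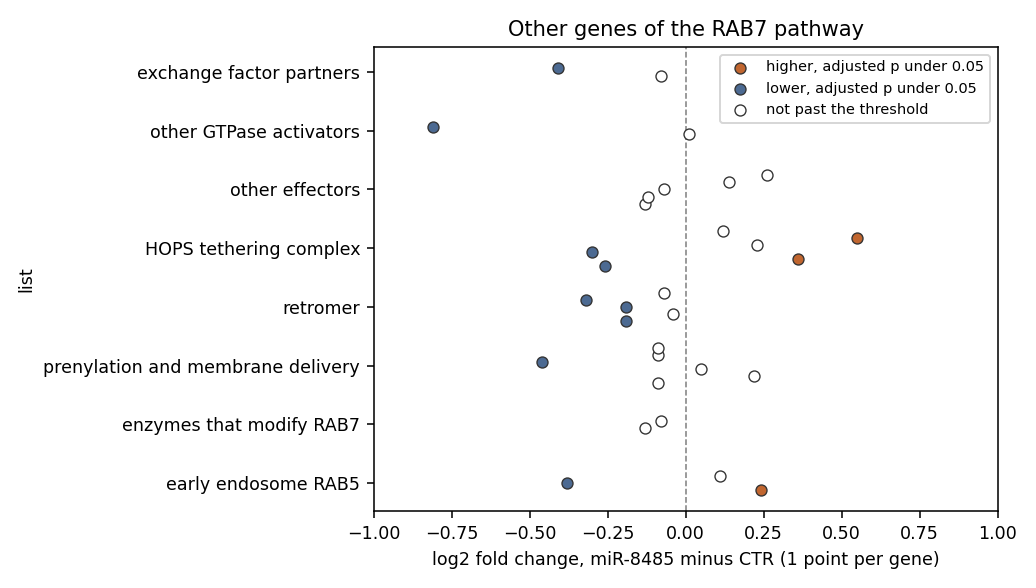
Log2 fold change, miR-8485 minus CTR, of the 31 tested pathway genes by list, with 1 point per gene; filled points passed an adjusted p of 0.05 in limma. The 3 higher and 9 lower genes are spread over 6 of the lists, and the points lie between -0.81 and 0.55.

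Genes near RAB7A on chromosome 3 were called in both directions. Within 500 kb, the table listed 38 genes, of which 12 were tested, with 5 higher, 3 lower and 4 not called in limma and a median log2 fold change of 0.05, beside 29.1% higher and 30.5% lower over all tested genes. Without miR-8485 replicate 3 the number of higher neighbours was 3, and after rescaling to TPM it was 2. The largest changes past the threshold were those of AC112484.3, a long noncoding RNA gene that rose from 1 to 2.91 FPKM (log2 difference 1.48), COPG1, a coatomer subunit gene (-0.80), ISY1, a splicing factor gene (0.58), and GATA2-AS1 (0.45). RPN1, another tested neighbour that was named after its values were seen, went from 84.1 to 63.5 FPKM (log2 difference -0.40, adjusted p = 1.2e-04 in limma). GATA2-AS1 overlaps GATA2 on the other strand, and without strand information their fragments cannot be told apart. Its call was also lost in 4 alternatives, with adjusted p from 0.055 to 0.0683 in limma. The 4 genes listed inside RAB7A were pseudogenes or a misc_RNA, and none of the 4 reached the filter.

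The libraries were of even depth, with 17473874 to 18480047 fragments on listed genes. A chi-square comparison of recovered fragments, divided by the number of genes, gave 2.75 to 10.5 for pairs of libraries within a group, above sampling noise alone, and 61.0 to 70.3 between the groups. Within the groups, the pairs with CTR replicate 1 gave 10.5 and 8.46, and the other pairs gave 2.75 to 3.87. MIR8485 was listed at 0 in all 6 libraries, so the mimic itself was not measured. Of 7 epithelial markers, 6 reached 1 FPKM in at least 1 library, VIL1 being the exception, and their summed level was 2613.1 to 2838.3 FPKM in CTR and 1751.2 to 1837.7 FPKM in miR-8485. The 3 keratins KRT8, KRT18 and KRT19 were lower (log2 differences -0.62, -0.97 and -0.58), EPCAM and CDH1 were not called (-0.05 each), and CDX2 was higher (0.81). Leukocyte and endothelial markers summed to less than 1 FPKM in every library. Of 3 fibroblast markers, COL1A1 alone reached 1 FPKM, and the list summed to 4.05 to 4.39 FPKM in CTR and 6.27 to 6.4 FPKM in miR-8485. The part of these differences in the values above was not tested.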

How the data were processed

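Reads were trimmed by the authors (fastp), aligned to hg38 (HISAT2 2.0.5) and counted per gene (featureCounts 1.5.0-p3), and the deposited values are FPKM; the strand setting of the counting is not given in the sources used here. Libraries were grouped by their titles, and 0 value columns lacked a sample. In every library, 100.0% of the values above 0 were whole multiples, within 0.02, of what 1 fragment is worth, so fragments were recovered.

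Genes with a mean of at least 1 FPKM over the 6 libraries were tested with limma (3.58.1, R 4.3.3) on log2(FPKM + 0.1), two-sided, with a variance trend and Benjamini-Hochberg adjustment over all tested genes, and called at an adjusted p under 0.05. Genes below that level came from the same fit of all genes above 0. The pseudocount makes fold changes of low genes too small. The fits were tested on simulated data in which far fewer genes changed than were called here. That test does not give their error rate in these data. Alternatives were other pseudocounts and filters, median-of-ratios and TPM scaling, no variance trend, a replicate block, voom on recovered fragments and leaving out each library. Figures were drawn in Python 3.11.15 with matplotlib 3.10.9.

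3′ UTRs came from GENCODE release 44, the longest per gene. Of 12350 genes looked up by ID, 12299 were in it, and 99.7% of these overlapped their deposited position. Printed stretches were read again from the GRCh38 genome and were equal.

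The members and lists were chosen with earlier results of these data known. Named genes were the members, genes of their name stem, up to 2 rising and 2 falling genes per list and every gene of a list of at most 3, the 4 neighbours with the largest called change, and the 5 genes most like RAB7A; OSBPL1A, RUBCN, UVRAG, WDR91, VPS13C, GATA2, RPN1 and the third called retromer gene were named after their values were seen.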

Additional observations from a re-analysis of the deposited data

How the results depend on the processing

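The log2 difference of RAB7A lay between -3.85 and -3.59 over 15 alternatives, and between -3.83 and -3.64 with each library left out. For the other 9 members, 124 of 128 recomputed values kept their direction and their side of the threshold, and the exceptions all became calls: MON1A (0.23, adjusted p = 0.042) in limma without the variance trend, MON1A and CCZ1 without miR-8485 replicate 2, and MON1B (-0.26, adjusted p = 0.015) after rescaling to TPM. With a filter at a mean of 5 FPKM, 4 members were tested, RAB7A among them, with 2 higher and 1 lower, and 2303 genes in all were higher and 2417 lower, against 3593 and 3769 with the filter at 1; fewer genes were tested, 6878. With each library left out, 4 to 6 members were higher and 2, RAB7A and TBC1D15, lower, 3124 to 3561 genes in all were higher and 3382 to 3663 lower, 3 pathway genes were higher and 7 to 9 lower, and 3 to 5 neighbours of RAB7A were higher. Rescaling to TPM gave 2613 higher and 4725 lower genes, 15 lower pathway genes and 2 higher neighbours. Limma without the variance trend gave 5 higher pathway genes, and the fit of all genes above 0 and the filter at 5 FPKM gave 3 higher neighbours each; for these 2 kinds of change the cause was not tested. Of 609 values of the other genes listed or named, 20 lost a call, 13 gained one and 0 reversed direction with a call in either fit. Sign flips between fits without a call were not counted, such as that of CCZ1B, from -0.08 to 0.07 without CTR replicate 3. No pairing by replicate number was seen, since the deviations of same-numbered libraries from their group means correlated at 0.07, 0.03 and -0.06. Whether same-numbered libraries were handled together is not given in the sources used here. With the number as a replicate block, 4 members were higher and 2 lower, as without it, and RAB7A had -3.72. Depth limits RAB7B, with at most 24 fragments per library; the other members had at least 201. Voom on recovered fragments changed no call of a member.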

Other observations

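Relatives of the effectors that do not count as effectors of RAB7A were measured as well. PLEKHM2, a relative of PLEKHM1 that binds the lysosomal GTPase ARL8, went from 15.6 ± 0.643 in CTR to 19.7 ± 0.619 FPKM in miR-8485 (SD, n = 3 each), a log2 difference of 0.34 (adjusted p = 8.7e-04 in limma with Benjamini-Hochberg adjustment). PLEKHM3 had 0.763 and 0.549 FPKM and a log2 difference of -0.41 in the fit of all genes above 0 (standard error 0.25, adjusted p = 0.342 in limma), with overlapping groups. It was past the threshold in voom on recovered fragments (-0.48, adjusted p = 0.0223). Of the RILP-like genes, RILPL2 had a log2 difference of 0.26 (adjusted p = 0.0421 in limma), a call that was lost in 6 of its alternatives, and RILPL1 had 0.10 with a standard error of 0.22.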
